A study of Mus musculus with 8 samples.

Results

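The haematopoietic cytokine receptor genes described here are Kit, Flt3, Csf1r, Csf2ra, Csf2rb, Csf2rb2, Csf3r, Il3ra and Epor. They were taken by gene symbol from the deposited count and FPKM tables (FPKM is fragments per kilobase of transcript, scaled for depth), and make up 9 of the 52459 genes listed. All 9 had enough counts to be tested in every comparison. The values are RNA levels in AE9a-driven mouse acute myeloid leukaemia taken from the spleen, in 8 libraries from 8 mice. The beta chain genes Csf2rb2 and Csf2rb were higher in both mice taken off doxycycline than in any other mouse. Of all tested genes, 24.9% were higher in both than in the mice kept on doxycycline and given PBS. The share higher in both than in any other mouse was not counted. At the main settings no receptor gene passed the test in edgeR in any comparison, and whether the beta chains passed depended on the settings.

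Cytokine receptors tell blood progenitors to survive, divide and mature. Kit, Flt3 and Csf1r are receptor tyrosine kinases that bind stem cell factor, FLT3 ligand and the macrophage growth factor CSF1. The other genes encode receptors without a kinase of their own, which signal through Janus kinases and STAT5. Epor and Csf3r pair with themselves to bind erythropoietin and G-CSF. The receptors for GM-CSF, IL-3 and IL-5 each join a ligand-specific alpha chain, such as Csf2ra or Il3ra, to a shared beta chain. The mouse has a pair of beta chain genes: Csf2rb serves all 3 of these cytokines and Csf2rb2 serves IL-3 alone. Kit marks early progenitors and mast cells, Epor erythroid precursors, Csf1r monocytes and macrophages, and Csf3r neutrophils and their precursors.

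AE9a is a truncated form of the leukaemia fusion protein RUNX1-RUNX1T1. Marrow cells of C57BL/6J mice, positive for cKit, the product of one of the genes described, were infected with a retrovirus holding AE9a and a hairpin against Tet2 that doxycycline switches on (genotype RTA shTet2 in every library). They were given with wild-type support marrow to lethally irradiated C57BL/6J recipients 6 to 8 weeks old, per the labels' protocols, and splenic AE9a-positive cells were later passed to secondary recipients, again with support marrow. The reference group is 3 PBS-treated secondary mice that stayed on doxycycline (mice 16, 17 and 19). A second group is 2 secondary mice off doxycycline and given PBS, labelled Tet2 restored (mice 21 and 23), and another is 2 secondary mice that stayed on doxycycline and received ascorbate (mice 28 and 30). The last library is 1 primary recipient on doxycycline (mouse 12). Doxycycline withdrawal and Tet2 restoration coincide, so their effects cannot be told apart. The labels do not say whether the mice of a group received cells of the same primary leukaemia, and the comparisons measure the spread between mice.

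The libraries held 18.1 to 34.2 M counts, and mitochondrial genes took 5.16% to 17.1% of them. Mouse 28 (18.1 M, 17.1%) and mouse 23 (19.9 M, 14.5%) had the fewest counts and the highest mitochondrial shares. In the PBS knockdown mice the share was 9.09% to 11.4%. The part of library quality in the receptor levels was not tested. Tet2, the target of the hairpin, stood at 12.6, 12.8 and 13.4 CPM (counts scaled to a common library depth) in the 3 PBS knockdown mice, 14.1 and 23.1 CPM in the off-doxycycline mice, 13.7 and 11.7 CPM with ascorbate and 9.26 CPM in the primary mouse. The 95% counting interval of mouse 21 (12.6 to 15.7 CPM) overlapped that of knockdown mouse 19 (12.1 to 14.9 CPM), so the Tet2 level of mouse 21 does not check its label. Erythroid markers were abundant in every library, with a summed level of 7687 to 16908 CPM over 12 genes, and Gata1, the erythroid and mast cell transcription factor, stood at 236 to 334 CPM. Granulocyte markers were low: Cebpa, a factor of the granulocyte line, ran from 0.121 to 0.645 CPM and Elane, a primary granule enzyme, from 0 to 0.653 CPM. In bulk RNA, fewer cells of a type and less RNA per cell cannot be told apart.

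Csf2rb and Csf2rb2 are shown first because their sequences bear on how reads could be assigned. On GRCm38 (GENCODE vM21), Csf2rb lies at chr15:78325752-78353847 on the plus strand and Csf2rb2 at chr15:78282507-78305721 on the minus strand, head to head with 20030 bases between them. Their coding sequences of 2691 and 2637 bases were identical at 95.2% of 2631 aligned bases. The longest stretch without a difference covers 242 bases, coding bases 2083 to 2324 in both, printed with 8 flanking bases on each side. The capitals mark the shared stretch.
Csf2rb: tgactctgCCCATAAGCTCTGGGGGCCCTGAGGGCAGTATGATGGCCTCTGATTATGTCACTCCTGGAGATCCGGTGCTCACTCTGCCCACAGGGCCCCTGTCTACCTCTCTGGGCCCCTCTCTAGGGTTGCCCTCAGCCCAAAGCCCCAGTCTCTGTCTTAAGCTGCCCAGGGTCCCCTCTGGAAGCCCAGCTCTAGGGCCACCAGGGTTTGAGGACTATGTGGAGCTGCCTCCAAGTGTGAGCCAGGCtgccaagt
Csf2rb2: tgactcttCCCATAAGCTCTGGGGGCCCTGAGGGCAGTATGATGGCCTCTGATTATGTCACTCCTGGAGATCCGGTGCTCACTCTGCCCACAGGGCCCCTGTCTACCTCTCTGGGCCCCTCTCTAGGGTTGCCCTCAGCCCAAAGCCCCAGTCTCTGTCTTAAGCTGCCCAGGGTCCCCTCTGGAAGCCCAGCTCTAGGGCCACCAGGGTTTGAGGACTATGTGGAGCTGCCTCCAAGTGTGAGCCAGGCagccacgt
A read of 50 bases from within the capitals fits both genes equally well. Of the 50-base words of the transcripts of Csf2rb, 12.3% also occur in Csf2rb2, and of those of Csf2rb2, 18.4% occur in Csf2rb. For 100-base words the shares were 4.63% and 6.82%. The read length and the handling of reads with more than 1 match are not given in the sources used here, so the split of counts between the pair is uncertain and their sum is reported as well.

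The 250 bases before the transcription start are shown for Csf2rb2 and Epor, the most abundant receptor genes with an entry in the RefSeq promoter table (build GRCm38.p6). Of the 9 genes, 7 had an entry that was used. Both strands were searched for the words AGATAA and, as its variant, TGATAA (erythroid GATA factors), TGTGGT (RUNX factors, the family from which AE9a has its DNA-binding part), GAGGAA (ETS factors such as PU.1) and TTCNNNGAA (STAT factors). Capitals mark matches, which appear as their reverse complement where they lie on the opposite strand.
Csf2rb2: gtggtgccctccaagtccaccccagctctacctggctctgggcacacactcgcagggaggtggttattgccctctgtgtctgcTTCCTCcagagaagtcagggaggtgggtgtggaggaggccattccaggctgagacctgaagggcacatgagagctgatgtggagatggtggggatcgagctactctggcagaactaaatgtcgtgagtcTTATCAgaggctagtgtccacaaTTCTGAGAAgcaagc
Epor: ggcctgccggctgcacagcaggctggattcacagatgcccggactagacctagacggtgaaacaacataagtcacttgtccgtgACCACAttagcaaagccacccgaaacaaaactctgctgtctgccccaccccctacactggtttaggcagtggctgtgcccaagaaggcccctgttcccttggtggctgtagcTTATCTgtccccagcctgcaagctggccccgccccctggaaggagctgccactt
Csf2rb2 (chr15:78305722-78305971, minus strand) held TGATAA 38 to 33 bases before the start, GAGGAA at 167 to 162 and TTCNNNGAA at 15 to 7. Epor (chr9:21963577-21963826, minus strand) held AGATAA at 54 to 49 and TGTGGT at 166 to 161. Over 32851 promoter windows of the same length, AGATAA occurred in 9.99%, TGATAA in 7.94%, TGTGGT in 14%, GAGGAA in 23.3% and TTCNNNGAA in 7.02%. A match describes letters in the window and not a bound site.

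On the length-scaled FPKM scale the 9 genes spanned a wide range, and the beta chains stood far above the rest. Csf2rb ran from 112 to 231 FPKM and Csf2rb2 from 59.2 to 199 FPKM, at or above the 95.1st percentile of genes with a value above 0 in their library. Epor followed at 18.9 to 37.1 FPKM and Kit at 6.04 to 23.2 FPKM, and these ranges overlap, although Epor exceeded Kit in each of the 7 secondary mice. Csf2ra (1.59 to 4.2 FPKM) and Csf1r (0.49 to 2.46 FPKM) also overlap, as do Csf1r and Il3ra (0.16 to 0.79 FPKM). Csf3r (0.04 to 0.19 FPKM) and Flt3 (0.03 to 0.10 FPKM) were near the limit of detection, with 3 to 19 and 5 to 17 counts per library. The lengths that the deposited FPKM imply were shorter than GENCODE's by a factor of 1.53 for Csf2rb and 1.55 for Csf2ra, and within 1.03 for Csf2rb2, so the order of Csf2rb and Csf2rb2 depends on the length used. On GRCm38 Epor lies at chr9:21958897-21963506 (minus strand), Kit at chr5:75574916-75656722 (plus), Csf2ra at chr19:61223957-61228429 (minus), Il3ra at chr14:14346275-14356011 (plus), Csf3r at chr4:126024550-126044440 (plus) and Flt3 at chr5:147330741-147400489 (minus), all protein-coding genes counted over their exons. Exons of Il3ra share 46 bases with Gm48860 on the opposite strand.

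**Figure D1:**
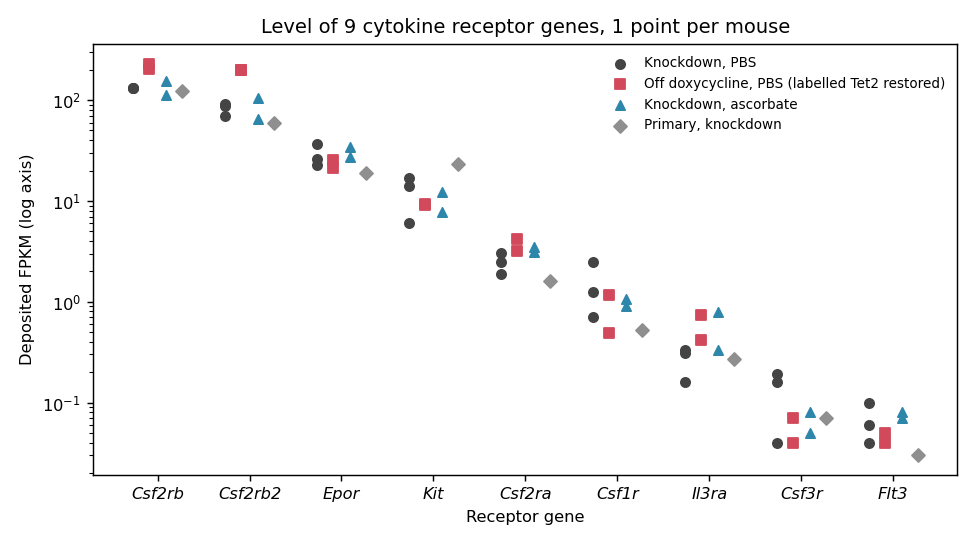
Deposited FPKM (log axis) of each receptor gene in each of the 8 mice, with 1 point per mouse and the symbol giving the group. Csf2rb and Csf2rb2 lie highest, between 59.2 and 231 FPKM, with both off-doxycycline mice (red squares) above all others, and Csf3r and Flt3 lie lowest.

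Csf2rb2, the beta chain for IL-3 alone, had 321, 410 and 430 CPM in the PBS knockdown group, 944 and 924 CPM in the mice off doxycycline, 493 and 304 CPM with ascorbate and 272 CPM in the primary mouse. Both off-doxycycline values were above every other library, and the gap between groups exceeded the range within either. The fitted level off doxycycline was 2.41-fold that of the PBS knockdown mice (95% interval 1.75 to 3.32), a log2 fold change of 1.27 with a standard error (SE) of 0.21. The adjusted p in edgeR's quasi-likelihood test was 0.0502, just outside the threshold of 0.05, and the gene ranked 26 of 12137 by p.

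Csf2rb, the beta chain shared by GM-CSF, IL-3 and IL-5, had 625, 640.5 and 629 CPM in the PBS knockdown group, which lay close together (632 ± 7.98 CPM, SD, n = 3). It had 996 and 1108 CPM off doxycycline, 745 and 541 CPM with ascorbate and 589 CPM in the primary mouse. The off-doxycycline mice again stood above all others, and the ascorbate mice lay on either side of the knockdown range. The fold off doxycycline was 1.67 (95% interval 1.31 to 2.12; log2 0.74, SE 0.16; edgeR adjusted p = 0.0509). With the counts of the pair summed into 1 gene the fitted log2 difference was 0.96 (SE 0.17; edgeR adjusted p = 0.0501), and the sum does not depend on how shared reads were split.

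In the comparison of off-doxycycline with PBS knockdown mice, edgeR called 0 of the 9 receptor genes and 0 of 12137 genes (0%), at a smallest adjusted p of 0.0502. At an unadjusted p under 0.05 there were 2 receptor genes, Csf2rb and Csf2rb2, against 29.2% of all genes (3549), so the count of 2 in 9 is not above the background. The Wald test of DESeq2 called both beta chains (adjusted p = 1.21e-05 for Csf2rb2 and 0.00221 for Csf2rb), and 16.1% of all genes. Limma voom called 0 receptor genes, as did limma-trend on FPKM. Leaving out mouse 21 or mouse 23 leaves 1 off-doxycycline library, and the fitted values of both beta chains stayed positive. Whether they passed in edgeR depended on which of these mice was left out, as it did for other genes.

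**Figure D2:**
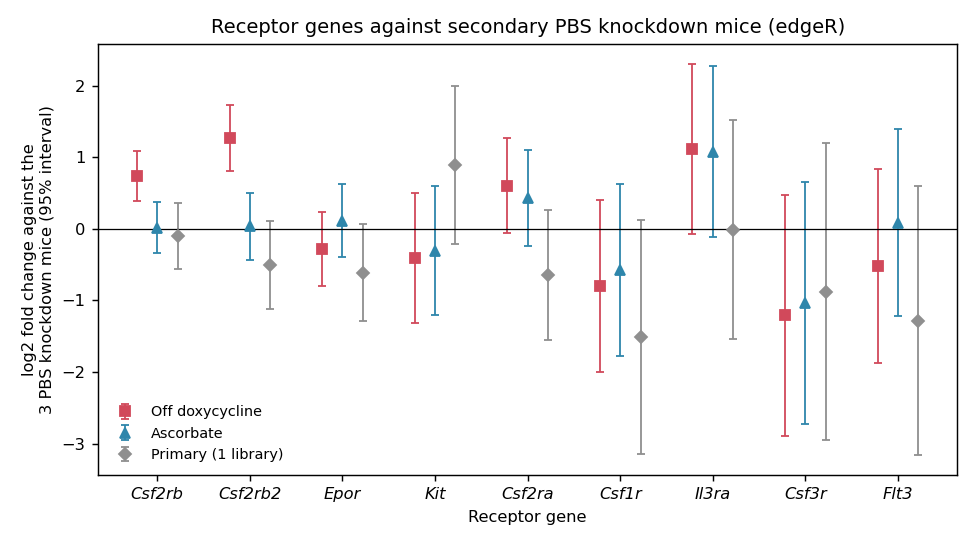
Fitted log2 fold change of each receptor gene against the 3 PBS knockdown mice (points) with 95% intervals (bars), for off-doxycycline mice (red squares), ascorbate mice (blue triangles) and the single primary mouse (grey diamonds). Only the off-doxycycline intervals of Csf2rb (log2 0.74) and Csf2rb2 (log2 1.27) lie wholly above 0, and the intervals widen towards the genes with few counts.

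The alpha chains were far less abundant than the beta chains. Csf2ra, which binds GM-CSF, had 3.47, 4.60 and 5.66 CPM in the PBS knockdown group, 7.997 and 5.91 CPM off doxycycline, 5.86 and 6.56 CPM with ascorbate and 2.92 CPM in the primary mouse. Every treated secondary mouse was above the knockdown range, by little in mice 23 and 28. The fitted log2 difference was 0.60 (SE 0.30; edgeR adjusted p = 0.207) off doxycycline and 0.43 (SE 0.30; edgeR adjusted p = 0.402) with ascorbate. Both arms are set against the same 3 knockdown mice, so these values are not independent of each other.

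Il3ra, the alpha chain for IL-3, gave 12, 24 and 26 counts in the PBS knockdown mice (0.484, 0.985 and 0.932 CPM). It gave 31 and 44 counts off doxycycline (1.28 and 2.22 CPM), 16 and 57 with ascorbate (0.977 and 2.38 CPM) and 28 in the primary mouse (0.795 CPM). Mice 23 and 30 were the highest, from different arms. The log2 fold changes of 1.12 off doxycycline and 1.07 with ascorbate had an SE of 0.53 each and did not pass in edgeR (adjusted p = 0.192 and 0.252). Under the alternatives the first ran from 0.66 (without mouse 23) to 1.47 (without mouse 21) and the second from 0.27 (without mouse 30) to 1.56 (without mouse 28). Il5ra, the alpha chain for IL-5, had 1 to 17 counts per library and passed the filter on low counts only with the primary library included.

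Within a library, Csf2rb exceeded Csf2ra 31.9- to 78.1-fold in FPKM and Csf2rb2 exceeded Il3ra 82.3- to 474-fold. The ratio of Csf2rb2 to Csf2rb was 0.530, 0.661 and 0.706 in the PBS knockdown mice, 0.979 and 0.861 off doxycycline, 0.684 and 0.582 with ascorbate and 0.477 in the primary mouse. Both off-doxycycline ratios were above those of the other mice, which follows the larger fold of Csf2rb2, and the ratio was given no test because it was chosen after its values were seen. The logarithmic levels of the pair had a Pearson r of 0.97 and a Spearman rho of 0.93 over the 8 libraries, which share treatment groups and any split of common reads, so the correlation is a description.

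Kit was the most abundant of the receptor tyrosine kinase genes and differed widely between mice of 1 group. It had 153, 54.4 and 126 CPM in the PBS knockdown group, 85.8 and 81.9 CPM off doxycycline, 110.4 and 70.7 CPM with ascorbate and 206 CPM in the primary mouse. Both treated arms lay inside the knockdown range, and the primary mouse lay above every secondary mouse. The log2 fold changes of -0.41 (SE 0.39; edgeR adjusted p = 0.513) off doxycycline and -0.31 (SE 0.39; edgeR adjusted p = 0.659) with ascorbate were about the size of their SE. Mouse 17, lowest for Kit, was highest for Epor and for the summed erythroid markers (16908 CPM); the part of erythroid content in either value was not tested.

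Csf1r, the CSF1 receptor of mononuclear phagocytes, had 3.43, 6.12 and 12.1 CPM in the PBS knockdown group, 5.85 and 2.42 CPM off doxycycline, 4.46 and 5.27 CPM with ascorbate and 2.53 CPM in the primary mouse. Mouse 19 stood above all others, and at least 1 mouse of each treated arm lay between the other knockdown mice. The fitted log2 difference was -0.80 (SE 0.54; edgeR adjusted p = 0.343) off doxycycline and -0.58 (SE 0.53; edgeR adjusted p = 0.532) with ascorbate. Summed macrophage markers (12 genes) were 128, 105 and 118 CPM in the knockdown mice, 50.6 and 16.4 CPM off doxycycline, 40.9 and 43.8 CPM with ascorbate and 77.4 CPM in the primary mouse, and their part in Csf1r was not tested. The exons of Csf1r overlap those of Hmgxb3 on the opposite strand by 873 bases, and no strand setting is given in the sources used here, so reads of the pair cannot be told apart there. Flt3, a receptor of early and dendritic progenitors, gave 10, 6 and 17 counts in the knockdown mice, 8 and 5 off doxycycline, 8 and 10 with ascorbate and 6 in the primary mouse, so a difference between groups was not detectable at this depth.

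Epor, the erythropoietin receptor, had 45.1, 74.6 and 51.8 CPM in the PBS knockdown group, 51.6 and 42.1 CPM off doxycycline, 69.5 and 55.2 CPM with ascorbate and 37.4 CPM in the primary mouse. The knockdown range covered both ascorbate values and 1 off-doxycycline value. The fitted log2 difference was -0.29 (SE 0.23; edgeR adjusted p = 0.429) off doxycycline and 0.11 (SE 0.23; edgeR adjusted p = 0.786) with ascorbate. Csf3r, the G-CSF receptor of the neutrophil line, gave 4, 14 and 19 counts in the knockdown mice, 6 and 3 off doxycycline, 5 and 4 with ascorbate and 9 in the primary mouse. It passed the filter on low counts through knockdown mice 17 and 19 alone, and its log2 fold changes of -1.21 and -1.04 (SE 0.75 each; edgeR adjusted p = 0.308 and 0.423) rest on those counts.

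In the comparison of ascorbate with PBS under knockdown, edgeR called 0 of the 9 receptor genes, against 2.86% of all genes (347 of 12137). No receptor gene had an unadjusted p under 0.05, against 23.6% of all genes, and DESeq2 called 0 receptor genes and 11% of all genes. The median log2 fold change was 0.034 over the receptor genes and -0.012 over all genes. For the beta chains the fitted values were close to 0, at 0.016 for Csf2rb (SE 0.16; edgeR adjusted p = 0.961) and 0.034 for Csf2rb2 (SE 0.21; edgeR adjusted p = 0.935). Their 95% intervals on the log2 scale were -0.34 to 0.37 and -0.43 to 0.50. The off-doxycycline values of 0.74 and 1.27 had intervals of 0.38 to 1.09 and 0.81 to 1.73 against the same 3 knockdown mice. These intervals do not test the difference between the arms. The sign of both ascorbate values changed with the scaling and with the library left out, and leaving out mouse 28 gave -0.23 and -0.35.

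The difference between the arms was tested directly. Csf2rb2 off doxycycline was 2.36 times its level with ascorbate (95% interval 1.65 to 3.38; log2 1.24, SE 0.23; edgeR adjusted p = 0.0939). For Csf2rb the fold was 1.65 (95% interval 1.26 to 2.16; log2 0.72, SE 0.17; edgeR adjusted p = 0.148). In this comparison edgeR called 0 of 9 receptor genes against 0.00824% of all genes (1 of 12137). There were 2 receptor genes with an unadjusted p under 0.05, the beta chains, against 16.2% of all genes. DESeq2 called both (adjusted p = 0.000396 for Csf2rb2 and 0.0231 for Csf2rb) and 3.66% of all genes. Both off-doxycycline values of Epor lay below both ascorbate values (log2 fold change -0.40, SE 0.25; edgeR adjusted p = 0.461).

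Counted by separate ranges, 4 receptor genes (Csf2ra, Csf2rb, Csf2rb2 and Il3ra) had both off-doxycycline mice above all PBS knockdown mice, against 24.9% of all genes, and 0 had both below, against 24.5%. These 4 are all the chains of the GM-CSF and IL-3 receptors among the 9 genes, a grouping made after the values were seen and given no test. The 95% counting intervals of Il3ra overlapped between mouse 21 (0.868 to 1.81 CPM) and knockdown mouse 17 (0.631 to 1.47 CPM). Those of Csf2ra overlapped between mouse 23 (4.88 to 7.08 CPM) and knockdown mouse 19 (4.81 to 6.62 CPM). Csf2rb and Csf2rb2 could share reads, so their separations are not independent of each other. With ascorbate, 1 receptor gene (Csf2ra) had both mice above the knockdown range, against 22.4% of all genes, and 0 had both below, against 23.5%. Between the arms, Csf2rb and Csf2rb2 were separate in the higher direction off doxycycline (2 of 9, against 22.8%) and Epor and Flt3 in the lower direction (2 of 9, against 22.1%). Flt3 had 8 counts in mouse 21 and in mouse 28, so its separation came from the scaling to library depth and is not a detectable difference. The median log2 fold change off doxycycline was -0.29 over the 9 receptor genes and -0.0020 over all genes.

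The primary mouse was set against the PBS knockdown mice as 1 library, assumed to vary like the other groups. Kit lay above the knockdown range (log2 fold change 0.89, SE 0.48; edgeR adjusted p = 0.641), and 1 gene of 9 in that direction compares with 31.8% of all genes. Below the range were 6 genes (Csf1r, Csf2ra, Csf2rb, Csf2rb2, Epor and Flt3), against 29.7% of all genes. Flt3 had 6 counts in the primary mouse and in knockdown mouse 17, so its place below the range came from the scaling to library depth. The log2 fold changes included -0.51 for Csf2rb2 (SE 0.28; edgeR adjusted p = 0.635), -0.61 for Epor (SE 0.30; edgeR adjusted p = 0.592) and -1.51 for Csf1r (SE 0.73; edgeR adjusted p = 0.578). EdgeR called 0 of 9 receptor genes, against 0.115% of all genes (15 of 13024), and DESeq2 called 0, against 1.69%. At an unadjusted p under 0.05 in edgeR there were 0 receptor genes, against 9.08% of all genes. Summed stem and progenitor markers (8 genes, Cd34 foremost) were 21.0 CPM in the primary mouse and 0.46 to 3.79 CPM in the secondary mice, and late neutrophil markers (9 genes) 43.6 CPM against 1.08 to 12.8 CPM. Their part in the Kit level was not tested. Transplant passage is 1 mouse here and cannot be told apart from that mouse.

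Markers of other cell types moved with the groups. Summed mast cell and basophil markers (11 genes, led by Ms4a2, a chain of the IgE receptor) were 591, 473 and 613 CPM in the PBS knockdown group, 1169 and 1426 CPM off doxycycline, 790 and 1109 CPM with ascorbate and 1429 CPM in the primary mouse. The 9 tested markers of this list all had positive fitted values in both arms, and edgeR called 0 off doxycycline and 1 with ascorbate (Cma1, a mast cell protease, log2 fold change 1.38, SE 0.28; adjusted p = 0.0408; lost on leaving out any mouse of the 2 groups, with library totals as the scaling and with a length and GC offset). Fcer1a, the IgE-binding chain, is named here after its values were seen. Its level was 33.4, 66.2 and 50.4 CPM for the PBS-treated knockdown mice, 226 and 353 CPM off doxycycline, 153 and 94.2 CPM with ascorbate and 38.5 CPM in the primary mouse. Like the beta chains, Fcer1a was highest in both off-doxycycline mice, but the list as a whole did not follow it. Between the arms, 5 of the 9 tested markers had positive fitted values and 4 negative (median log2 fold change 0.017). In the primary mouse against the knockdown mice 8 were positive, and only Fcer1a was negative (log2 fold change -0.38). Its log2 fold change was 2.53 off doxycycline (SE 0.32; edgeR adjusted p = 0.0502), 1.29 with ascorbate (SE 0.31; edgeR adjusted p = 0.0614) and 1.24 between the arms (SE 0.35; edgeR adjusted p = 0.186). The summed macrophage markers of both arms lay below those of the knockdown mice, with 11 of 11 tested genes negative in each. The primary mouse also lay below the knockdown mice (77.4 CPM), again with 11 of 11 tested genes negative (median log2 fold change -1.55). EdgeR called 0 of them off doxycycline and 3 with ascorbate (Vcam1, Mertk and Mrc1). Each of these calls was lost without mouse 16, 19, 28 or 30, and those of Mertk and Mrc1 also without mouse 17. Mertk was also lost with DESeq2 and Mrc1 with a length and GC offset. Other lists summed to lower levels than the mast cell list: monocyte markers summed to 14.6 to 33.8 CPM, primary granule markers to 2.90 to 10.1, megakaryocyte markers to 1.05 to 4.83, dendritic cell markers to 55.1 to 209, B cell markers to 1.46 to 6.77, T and NK cell markers to 0.625 to 5.68 and endothelial and stromal markers to 1.56 to 8.46 CPM. Of these lists edgeR called 1 further gene, Prtn3, a primary granule protease, with ascorbate (log2 fold change 1.66, SE 0.32; adjusted p = 0.0356; also lost on leaving out any mouse of the 2 groups). Endothelial and stromal markers summed to 4.15, 3.86 and 8.46 CPM for the PBS-treated knockdown mice, 2.23 and 1.56 CPM off doxycycline, 3.85 and 4.77 CPM with ascorbate and 1.76 CPM in the primary mouse. Among them Col1a1, a fibrillar collagen named after its values were seen, had 44, 34 and 59 counts in the knockdown mice, 1 and 0 off doxycycline, 14 and 31 with ascorbate and 32 in the primary mouse (edgeR adjusted p = 0.0502 off doxycycline). Summed erythroid markers overlapped between groups, with 0 genes called. The part of these cell types in the receptor levels was not tested.

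**Figure D3:**
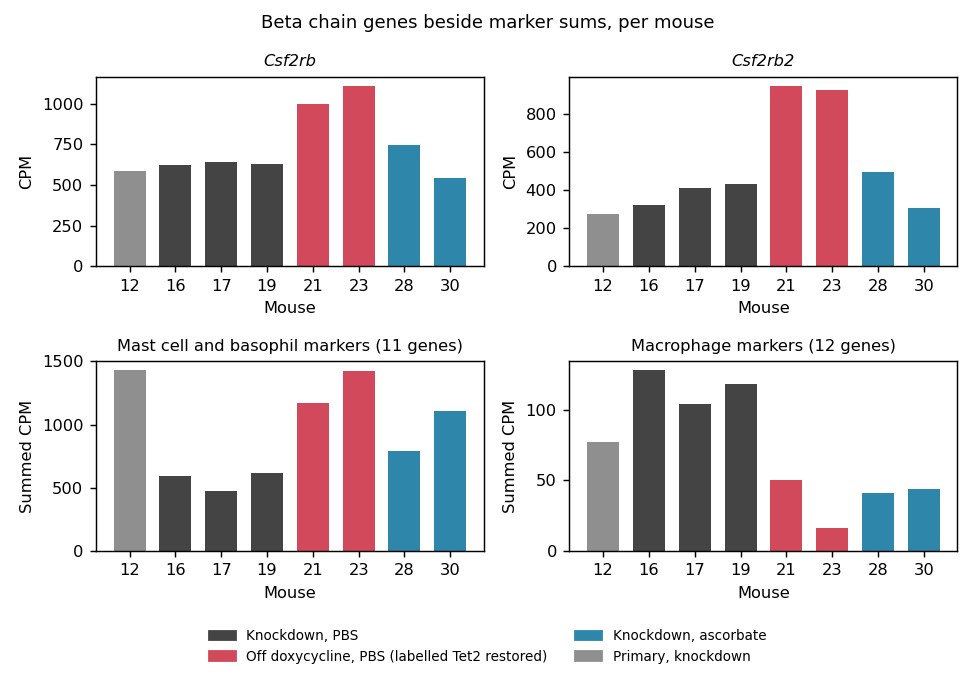
CPM of Csf2rb and Csf2rb2 (upper panels) and summed CPM of 11 mast cell and basophil markers and 12 macrophage markers (lower panels) in each mouse, coloured by group, with every axis from 0. The beta chains are highest in mice 21 and 23, and the mast cell and basophil sum is above the knockdown mice in mice 12, 21, 23, 28 and 30 (790 to 1429 CPM).

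Few ligands of these receptors were transcribed in these cells. Of 10 ligand genes, 2 had enough counts to be tested and edgeR called 0 in any comparison. Csf1, the ligand of Csf1r, had 0.484, 0.862 and 0.896 CPM in the PBS knockdown group, 4.12 and 5.30 CPM off doxycycline, 0.794 and 1.34 CPM with ascorbate and 1.11 CPM in the primary mouse. The off-doxycycline mice were the highest, at a log2 fold change of 2.65 (SE 0.42; edgeR adjusted p = 0.0502). Flt3l, the FLT3 ligand, ran from 10.9 CPM in the primary mouse to 24.5 CPM in mouse 21 (log2 fold change 0.59 off doxycycline, SE 0.22; edgeR adjusted p = 0.116). Il3, Epo and Thpo had 0 counts in all libraries. The 1-sided 95% upper limit for 0 counts, taken as 3 counts, was 0.0852 to 0.183 CPM depending on the library. Kitl had 3 to 6 counts in the knockdown mice and 0 elsewhere, and Il34, Csf2, Csf3 and Il5 had at most 2 counts in any library.

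Of 32 other cytokine receptor genes, 21 were tested in the secondary mice and edgeR called 0 in either arm. The smallest p off doxycycline belonged to Crlf2, the receptor chain for TSLP, with 8.02, 10.7 and 12.7 CPM in the knockdown mice, 21.7 and 39.2 CPM off doxycycline and 16.4 and 17.2 CPM with ascorbate (log2 fold change 1.54 off doxycycline, SE 0.28; edgeR adjusted p = 0.0502). Acvr1b, an activin receptor, followed at -0.61 (SE 0.16; edgeR adjusted p = 0.0638). With ascorbate the smallest p belonged to Tgfbr2 (1.22, SE 0.34; edgeR adjusted p = 0.0856) and Ifnar2 (0.50, SE 0.16; edgeR adjusted p = 0.110), receptors for TGF-beta and type I interferon.

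Among 30 tested genes of proximal signalling (kinases, STATs and adaptors), edgeR called 0 off doxycycline, where Ptpn11, a phosphatase that carries receptor signals, had a log2 fold change of -0.68 (SE 0.16; adjusted p = 0.0535) and Grb2, an adaptor, 0.66 (SE 0.15; adjusted p = 0.0541). With ascorbate 1 gene was called: Fes, a cytoplasmic tyrosine kinase of myeloid cells, rose from 12.9, 17.2 and 24.3 CPM to 44.7 and 36.9 CPM (log2 fold change 1.16, SE 0.25; edgeR adjusted p = 0.0448).

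Of 22 tested feedback and target genes of these receptors, edgeR called 0 off doxycycline, with Ccnd2 (-0.48, SE 0.18; adjusted p = 0.115) and Spred2 (1.78, SE 0.64; adjusted p = 0.119) at the smallest p. With ascorbate 19 of the 22 had negative values (median log2 fold change -0.40, against -0.012 over all genes). The primary mouse, set against the same knockdown mice, had 17 of 22 negative (median -0.39, against -0.011 over all genes). Off doxycycline 9 of 22 were negative (median 0.070). EdgeR called 1 of these genes with ascorbate. Myc, a growth regulator, fell from 351, 341 and 423 CPM to 182 and 154 CPM (log2 fold change -1.16, SE 0.24; edgeR adjusted p = 0.0414). Of 14 tested transcription factors of receptor genes, edgeR called 0 off doxycycline, where Spi1, which encodes PU.1, had a log2 fold change of 0.97 (SE 0.19; adjusted p = 0.0502) and Gata2 1.54 (SE 0.42; adjusted p = 0.0696). With ascorbate Spi1 rose (0.84, SE 0.19; edgeR adjusted p = 0.0477) and Gfi1b, a repressor of the erythroid and megakaryocyte lines, fell (-1.51, SE 0.24; edgeR adjusted p = 0.0272). The calls of Fes, Myc, Spi1 and Gfi1b with ascorbate were each lost on leaving out any of the 5 mice compared, with adjusted p up to 0.235, and those of Fes and Spi1 also with library totals as the scaling and with limma-trend on log2(FPKM + 0.1), that of Spi1 with log2(FPKM + 1) as well. In the comparison of the arms and in that of the primary mouse, edgeR called 0 genes of these 5 lists.

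The genes whose log2 CPM over the 8 libraries resembled each receptor most were listed among 8530 genes of at least 5 CPM on average, as descriptions over libraries that share groups. For Csf2rb2 they were Clk2 (Pearson r 0.98) and Gatd1 (0.97), and for Csf2rb Nudt16 (0.98) and Ccdc94 (0.97). For Epor they were Sphk2 (0.97) and Nfe2 (0.97), an erythroid and megakaryocyte transcription factor. For Csf1r they were Cybb and Mpeg1 (both 0.97), genes of phagocytes. Csf2ra paired with Spire2 (0.97) and H3f3a (0.96), Il3ra with Npepl1 (0.96) and Pabpn1 (0.95), and Kit with Slc30a6 (0.93) and Bicral (0.92). The likeness was lower for the sparse genes, Flt3 with Slfn2 (0.88) and Ctss (0.86) and Csf3r with Aars2 (0.87) and Usp21 (0.84).

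Across the other settings that kept the genes apart, the log2 fold change off doxycycline ran from 0.65 (without mouse 23) to 0.87 (length and GC offset) for Csf2rb and from 1.16 (without mouse 16) to 1.35 (without mouse 19) for Csf2rb2. All of these values were positive, and each gene passed the threshold in 5. With the counts of both genes summed the value was 0.96 (edgeR adjusted p = 0.0501). The 5 settings were DESeq2 size factors in edgeR (adjusted p = 0.0498 and 0.0487), the DESeq2 Wald test, no filter on low counts (0.00177 and 1.43e-09), a filter of 1 CPM in 2 libraries (0.0481 for both) and the omission of mouse 21. With mouse 21 or mouse 23 left out, 1 off-doxycycline library remained, assumed to vary like the other groups. The counts over all genes, which also rose under these 5 settings, are given in the last section.

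**Figure D4:**
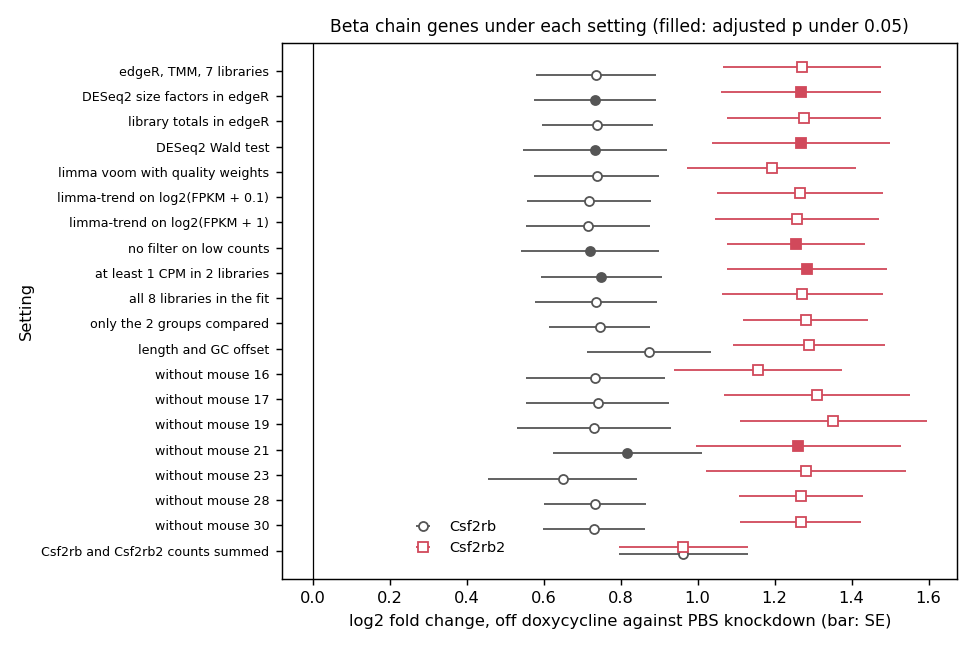
Log2 fold change of Csf2rb (grey circles) and Csf2rb2 (red squares) off doxycycline against PBS knockdown under each setting, with bars of 1 SE and filled symbols where the adjusted p is under 0.05. All values lie between 0.65 and 1.35, and the lowest pair of symbols, which coincide at 0.96, is the summed count of both genes.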

How the data were processed

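RNA-seq of splenic AE9a-positive leukaemia cells gave 8 libraries. Oligo-dT beads enriched mRNA and libraries were made with a NEXTflex kit, per the labels' protocols. The authors deposited whole-number counts per gene symbol and a table of FPKM values. STAR, featureCounts and DESeq2 were used with mm10 (GRCm38), per the submitters' processing notes, with no versions or strand setting. From the counts, CPM were computed on totals scaled by trimmed mean of M-values (TMM). The test was edgeR 4.0.16 quasi-likelihood (robust, R 4.3.3), with its expression filter at a minimum count of 10, 2-sided, with Benjamini-Hochberg adjustment over all tested genes and a threshold of 0.05. The 7 secondary libraries were fitted together, and all 8 for the primary mouse. Alternatives used DESeq2 1.42.0, limma 3.58.1 (voom, and limma-trend on log2 FPKM with a pseudocount of 0.1 or 1, for genes of at least 1 FPKM in 2 libraries), other scalings, filters and sets of libraries. The fits were tested on simulated data. Intervals at 95% for single levels are Poisson and cover counting error only. Fold-change intervals come from the fit.

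Named genes are the 9 receptors, Tet2, up to 4 called genes (or 2 of smallest p where none was called) from 5 pathway lists, and the 2 most similar genes per receptor. Markers are from 12 cell type lists. Members and lists were chosen with earlier results of these data known. Of the tested genes, 97.7% were in the annotation (GENCODE vM21). In the files as deposited, 26 symbols read as dates.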

Additional observations from a re-analysis of the deposited data

How the results depend on the processing

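No paired analysis was possible because the labels do not say which mice received cells of the same primary leukaemia. Of 603 receptor values under alternatives, 34 changed sign, none of them past the threshold, 14 passed it newly and 0 lost it. Off doxycycline against knockdown, 2 receptors were called instead of 0 with DESeq2 size factors, the DESeq2 Wald test, no filter or a 1 CPM filter (0 to 2 with 1 mouse left out), and 367, 1951, 2207 and 321 genes instead of 0 (0 to 1692, the latter without mouse 21). With ascorbate, 347 genes became 1339 (DESeq2), 1105 (voom), 1498 (no filter), 855 (only the 2 groups) and 578 (length and GC offset), and 2 to 796 with 1 mouse left out (2 without mouse 28, 5 without 16, 7 without 30, 15 without 19, 87 without 17, 763 without 23 and 796 without 21). Library totals called 83 higher and 300 lower, against 132 and 215, with a median log2 fold change of -0.12 over all genes, and the length and GC offset 286 and 292. Between the arms, 2 receptors were called instead of 0 with DESeq2 and without a filter, and 1 gene became 444 (DESeq2), 582 (no filter), 3 (both FPKM settings, all 8 libraries, length and GC) or 0 (only the 2 groups), and 0 to 5 with 1 mouse left out. For the primary mouse, 15 genes became 220 (DESeq2), 279 (voom), 8 (FPKM + 0.1), 467 (no filter), 5 (1 CPM) or 43 (length and GC), and 6 to 45 with 1 mouse left out. The cause of these moves was not tested. Some log2 fold changes crossed 0. With ascorbate they were Flt3 at -0.027 (library totals) and -0.14 (voom), Csf2rb at -0.10 (totals), -0.0020 (voom), -0.0013 and -0.0012 (FPKM + 0.1 and + 1), Csf2rb2 at -0.089 (totals) and -0.094 (voom), and Epor at -0.0012 (totals) and -0.17 (length and GC). Between the arms they were Kit at 0.027 (totals) and Il3ra at -0.079 (length and GC). For the primary mouse Il3ra gave 0.0021 (DESeq2 size factors), 0.0033 (totals), 0.0025 (DESeq2), 0.016 (no filter) and 0.25 (length and GC). With 1 mouse left out, the ranges that crossed 0 were -0.18 to 0.19 (Flt3), -0.91 to 0.021 (Csf1r), -0.23 to 0.22 (Csf2rb), -0.35 to 0.34 (Csf2rb2) and -0.054 to 0.35 (Epor) with ascorbate. They were -0.39 to 0.25 (Kit), -0.999 to 0.26 (Csf1r), -0.068 to 0.36 (Csf2ra), -0.58 to 0.26 (Csf3r) and -0.45 to 0.84 (Il3ra) between the arms, and -0.23 to 0.16 (Il3ra) for the primary mouse. Leaving out a mouse of an arm of 2 leaves 1 library, assumed to vary like the other groups. Depth limits Flt3, Csf3r and Il3ra, with at most 57 counts per library.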
